A study of Mus musculus with 2 samples.

Results

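The complement genes examined were the 3 chains of C1q (C1qa, C1qb and C1qc), the components C3 and C4b, factor D (Cfd), the C1 inhibitor (Serping1), clusterin (Clu) and the membrane inhibitor Cd59a. They were chosen by name, as the rows of the deposited expression table whose symbol equals one of these names, and all 9 of 9 were found among 31920 rows. Polyadenylated RNA of the cardiac left ventricle was sequenced from a library labelled Lamp2 knockout (the knockout-labelled library) and from a wildtype library, both from male 129-SvEv mice aged 10 weeks, in a series on cardiomyopathy from loss of the lysosomal protein LAMP2. The knockout sample is also described as L2_HEMI and the wildtype sample as L2_WT, and the labels name no treatment and no pooling of animals. Each genotype had 1 library, so no difference below has a replicate check. No p-value is given, and all intervals are 95% intervals that cover counting error only.

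Complement is a cascade of plasma and tissue proteins that marks cells and debris for removal. C1q binds targets and starts the classical pathway, which cleaves C4 and C2 and then C3, the component on which all pathways converge. Factor D acts in the alternative pathway, which amplifies C3 cleavage. The terminal components then build a pore in the target membrane, and inhibitors in plasma and on cell surfaces hold the cascade back. Plasma complement comes mostly from the liver, while C1q is made mainly by macrophages and factor D by adipocytes, and many tissues make some components locally.

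Reads assigned to genes numbered 8773820 in the knockout-labelled library and 8410593 in the wildtype library. Levels are in reads per 1000000 reads assigned to genes (RPM). For a gene listed at 0 the upper limit of 3 reads amounted to 0.342 RPM in the knockout-labelled library and 0.357 RPM in the wildtype. Lamp2 itself had 986 reads (112 RPM) in the knockout-labelled library and 990 reads (118 RPM) in the wildtype, a ratio of 0.955 (0.873 to 1.04). A count over the whole gene does not check a deletion that leaves the rest of the transcript in place, so the genotype is given here as labelled. Mitochondrial transcripts took 16.2% of reads in the knockout-labelled library and 26.5% in the wildtype. That share lowers or lifts every other RPM value, and 3 rescalings divided the ratios by 1.08 (median ratio), 1.09 (trimmed mean of log ratios) and 1.14 (a total that leaves out mitochondrial and the 10 top other genes). Defining cardiomyocyte genes were abundant in both libraries: Myh6, the main adult myosin heavy chain, was at 18405 RPM in the knockout-labelled library against 19313 RPM in the wildtype, and Tnnt2, cardiac troponin T, at 11743 against 10910 RPM.

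Promoter sequence of GRCm38.p6 was on hand from RefSeq for 5 of the 9 genes. The windows of C1qb and C1qc are shown because these adjacent genes were both higher in the knockout-labelled library, and that of C3 because it is the central component. Each is the 250 bases before the annotated start, written 5′ to 3′ on the gene's own strand. Capitals mark the core GAGGAA (on either strand, so also TTCCTC) bound by PU.1, a transcription factor of macrophages, in the C1q windows, and a match to TTGCNNAA, a pattern bound by C/EBP factors, in the C3 window.
C1qb, chr4:136886201-136886450, minus strand: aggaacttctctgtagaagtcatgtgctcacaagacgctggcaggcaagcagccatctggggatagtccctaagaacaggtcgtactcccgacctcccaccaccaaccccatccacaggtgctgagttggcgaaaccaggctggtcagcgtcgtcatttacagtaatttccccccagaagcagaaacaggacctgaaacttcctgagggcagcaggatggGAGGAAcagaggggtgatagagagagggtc
C1qc, chr4:136892915-136893164, minus strand: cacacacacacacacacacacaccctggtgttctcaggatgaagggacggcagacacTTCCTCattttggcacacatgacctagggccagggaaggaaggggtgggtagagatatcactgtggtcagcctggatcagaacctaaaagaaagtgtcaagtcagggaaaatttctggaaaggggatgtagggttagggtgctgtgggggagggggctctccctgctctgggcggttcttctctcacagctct
C3, chr17:57228137-57228386, minus strand: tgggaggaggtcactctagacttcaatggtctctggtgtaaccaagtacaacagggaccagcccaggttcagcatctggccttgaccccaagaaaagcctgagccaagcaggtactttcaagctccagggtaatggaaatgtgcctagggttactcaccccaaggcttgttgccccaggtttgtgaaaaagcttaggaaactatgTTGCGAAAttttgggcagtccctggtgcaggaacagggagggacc
The PU.1 core began 30 bases before the start of C1qb and, on the opposite strand, 193 bases before the start of C1qc. It was also found in the Cd59a window. Over all 32851 promoter windows of the same length it was found in 23.3%, so its presence is common. The C/EBP pattern began 45 bases before the start of C3 and was found in 9.56% of all windows. The core TGCTGA, bound by MAF factors, was found in the C1qb window and, on the opposite strand, in the C3 window, against 16.1% of all windows. TTCNNNGAA, bound by STAT factors, and the TATA box core TATAAA were in none of the 5 windows, against 7.02% and 12.4% of all. No match overlapped one of another motif. In the Cfd window none of these patterns was found. A match describes the letters and is not a binding site.

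Genes that reached 5 RPM in either library counted as measured. The difference was expressed as log2 of the knockout-labelled over the wildtype level after 1 RPM was added to both, and a size of 1 or more, a 2-fold difference on that scale, made a call. Of the 9 genes, 8 were measured, and Cfd was not. The calls were C1qa, C1qb and Clu, each higher with the knockout label, and 0 genes of the set were lower. Among all 10209 measured genes, 3.35% were called higher and 2.37% lower, 342 and 242 genes. Of these called genes 58.6% were higher, a share that was 44.2%, 43.9% and 37.7% under the 3 rescalings in the order given above. The median log2 ratio of the 8 measured genes was 0.79, against 0.11 over all measured genes. C1qb and Clu kept the call under each rescaling, and C1qa lost it under each, with a log2 ratio of 0.99, 0.98 and 0.92.

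**Figure D1:**
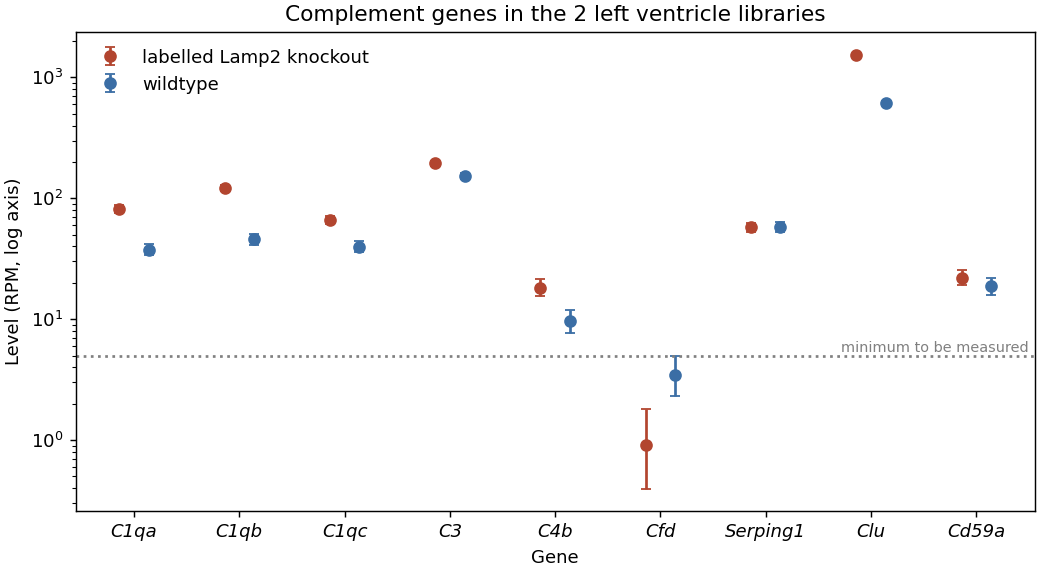
Level of each of the 9 complement genes in RPM on a log axis, with the library labelled Lamp2 knockout on the left of each pair and the wildtype library on the right. Bars are 95% Poisson intervals of the reads of 1 library each. Clu stands highest in RPM, at 1536 against 618 RPM, Serping1 is level at 57.8 against 57.9 RPM, and Cfd lies below the 5 RPM minimum in both.

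The C1q chains were all higher in the knockout-labelled library, by different amounts. C1q is assembled from equal numbers of the A, B and C chains, and their genes lie side by side on the minus strand of chromosome 4, within 18.7 kb from 136880145 to 136898844 (mm10). C1qb, the B chain (136880145 to 136886177), had 1062 reads (121 RPM) in the knockout-labelled library and 385 reads (45.8 RPM) in the wildtype, a ratio of 2.64 (2.35 to 2.98). C1qa, the A chain (136895916 to 136898844), had 720 reads (82.1 RPM) against 317 reads (37.7 RPM), a ratio of 2.18 (1.91 to 2.49). C1qc, the C chain (136889802 to 136892914), had 581 reads (66.2 RPM) against 335 reads (39.8 RPM), a ratio of 1.66 (1.45 to 1.91), which was under the 2-fold rule. The interval of C1qc did not overlap that of C1qb. Summed over the chains, 2363 reads (269 RPM) stood against 1037 reads (123 RPM), a ratio of 2.18 (2.03 to 2.35).

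The chains therefore took different shares of the C1q reads in the libraries. C1qb took 44.9% (exact binomial interval 42.9 to 47.0) of the reads of the 3 chains in the knockout-labelled library and 37.1% (34.2 to 40.1) in the wildtype. C1qc took 24.6% (22.9 to 26.4) in the knockout-labelled library and 32.3% (29.5 to 35.2) in the wildtype. For C1qa the shares were 30.5% and 30.6%, inside each other's intervals. The shares do not depend on the scaling between libraries. None of the 50-base windows of the C1q transcripts was found in a transcript of another gene, and no other row of the table overlaps theirs.

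**Figure D2:**
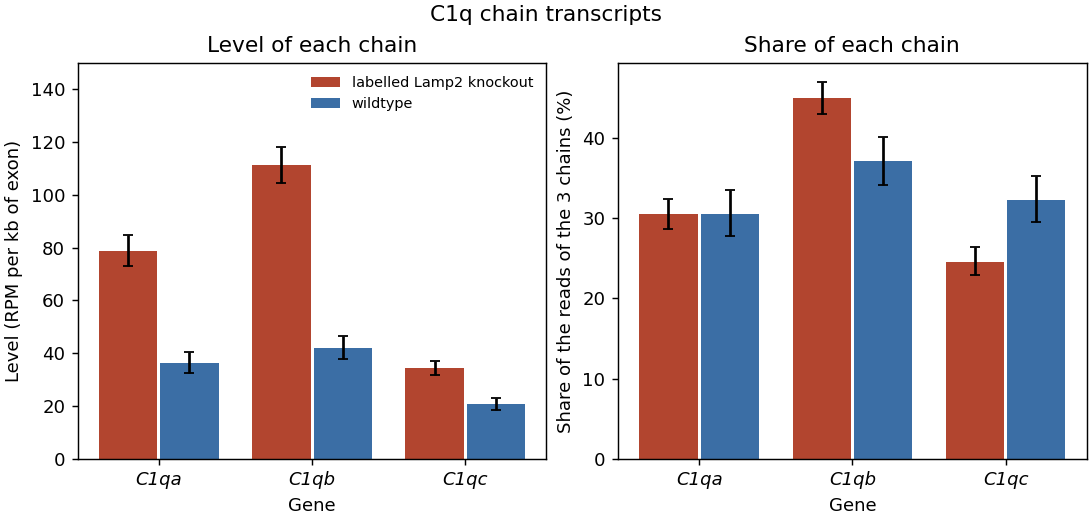
Left, RPM per kb of annotated exon for the 3 C1q chains, and right, each chain's percentage of the reads of the 3 chains, with the library labelled Lamp2 knockout left of the wildtype. Bars carry 95% counting intervals of 1 library each. C1qb is the highest chain in both libraries and its share is 44.9% against 37.1%, while the share of C1qc is 24.6% against 32.3%.

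Macrophage markers, the genes of the cells that make most C1q, were also mostly above 0 on the log2 scale in the knockout-labelled library. Of 21 markers found, 12 were measured, and their median log2 ratio was 0.40. Of these 12 rows 0 were called, against 3.35% called higher and 2.37% lower over all measured genes. On the deposited scale 11 of them were above 0, where 61.2% of all measured genes were above 0. Of these, Mrc1, Cd14 and F13a1 were at only 0.02, 0.11 and 0.11, and the rescalings shift log2 ratios by about −0.12, −0.12 and −0.18. Their summed level was 265 RPM in the knockout-labelled library against 205 RPM in the wildtype, a ratio of 1.29, and no marker was at 0 in both libraries. Cd74, the invariant chain of antigen presentation, was at 69.1 against 45.7 RPM, and Csf1r, the receptor for macrophage colony-stimulating factor, at 32.4 against 27.0 RPM. Rarer markers went both ways: Emr1, which encodes the macrophage antigen F4/80, had 24 reads against 8 and the signalling adaptor Tyrobp 191 against 93, while Cx3cr1, the fractalkine receptor, had 6 against 29 and the Fc receptor Fcgr1 0 against 9. The part of macrophage number in the C1q levels was not tested, and in bulk tissue more cells of a type cannot be told apart from more RNA per cell.

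The later steps of the classical pathway and the lectin pathway were mixed. C4b (chromosome 17, minus strand, 34728381 to 34743897), the classical pathway component that is cleaved by C1, had 160 reads (18.2 RPM) in the knockout-labelled library and 81 reads (9.63 RPM) in the wildtype. Its ratio was 1.89 (1.44 to 2.51), above 1 beyond counting error but under the 2-fold rule. C4b reads are uncertain, because 35.2% of the 50-base windows of its longest coding transcript are found in transcripts of its near copy C4a (16.5% of 100-base windows), and the deposited C4a row runs from 34728381 to 34823454 and so covers all of C4b. The C4a row held 26 reads against 9, and with them added the ratio was 1.98 (1.53 to 2.58). Masp1, which encodes a protease of the lectin pathway, was called higher at 126 RPM in the knockout-labelled library against 50.2 RPM in the wildtype. Its ratio was 2.52 (2.25 to 2.82), with a 272-base overlap by an opposite-strand row of 41 against 15 reads. The count covers the whole gene and does not tell its transcripts apart. The C1 proteases C1ra and C1s were at 10.4 against 7.13 RPM and 9.35 against 9.39 RPM. The soluble collectin Colec11 was at 3.76 against 7.13 RPM (ratio 0.527, 0.334 to 0.819), and passed the 5 RPM minimum only through the wildtype. In the list of classical and lectin genes, C1q chains included, 8 of 17 rows were measured, with a median log2 ratio of 0.79. In this list 3 were called higher and 0 lower, against 3.35% and 2.37% over all measured genes. Apart from the C1q chains, 5 of its rows were measured, Masp1 alone was called, and the middle log2 ratio was the 0.48 of C1ra.

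Of the rows of that list below the minimum, Mbl1, Mbl2, Fcnb and Colec10 were listed at 0 reads in both libraries. Fcna, a ficolin of the lectin pathway, had 36 reads in the knockout-labelled library against 8 in the wildtype. C2 had 18 against 19 reads, Masp2 5 against 7 and C1rb 0 against 1.

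Of the 4 rows of C3 and the alternative pathway, C3 alone was measured. It (chromosome 17, minus strand, 57203973 to 57228136) had 1714 reads (195 RPM) in the knockout-labelled library and 1288 reads (153 RPM) in the wildtype, a ratio of 1.28 (1.19 to 1.37). The ratio was 1.18, 1.17 and 1.12 under the rescalings, with the lower bound above 1 in each (1.09, 1.09 and 1.04). C3 lay within 2-fold, and 2853 of all measured genes had a higher log2 ratio. Cfb, factor B, which binds cleaved C3 and is the substrate of factor D, had 24 reads against 12, and Cfp, properdin, which stabilises the alternative convertase, 8 against 10.

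Cfd (chromosome 10, plus strand, 79890853 to 79892656) was the member with the lowest ratio, but it rested on few reads. It had 8 reads (0.912 RPM) in the knockout-labelled library and 29 reads (3.45 RPM) in the wildtype, a ratio of 0.264 (0.104 to 0.593). Factor D is also known as adipsin. Of 14 rows of fat cell markers 4 were measured and were mixed, with 1 called higher and 0 lower (3.35% and 2.37% over all measured genes). All unmeasured rows that held reads had fewer in the knockout-labelled library, on few reads each. Adipoq, adiponectin, had 1 read against 2 and Plin1, the coat protein of fat cell lipid droplets, 1 against 12. Pck1 had 0 reads against 10, Cidec 5 against 8, Adig 2 against 5, Acvr1c 0 against 3 and Elovl3 1 against 2. Lep, Retn and Ucp1 were listed at 0. The adipocyte list summed to 12280.5 RPM in the knockout-labelled library against 9691 RPM in the wildtype. Nearly all of that was Lpl at 11895 against 9229 RPM, with Fabp4 at 281 against 376 RPM, genes that heart tissue itself expresses. The lipid droplet protein gene Cidea was at 61.4 against 66.1 RPM, and Thrsp, a regulator of lipid synthesis, was called higher at 41.8 against 14.9 RPM. The part of fat tissue in the Cfd difference was not tested.

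**Figure D3:**
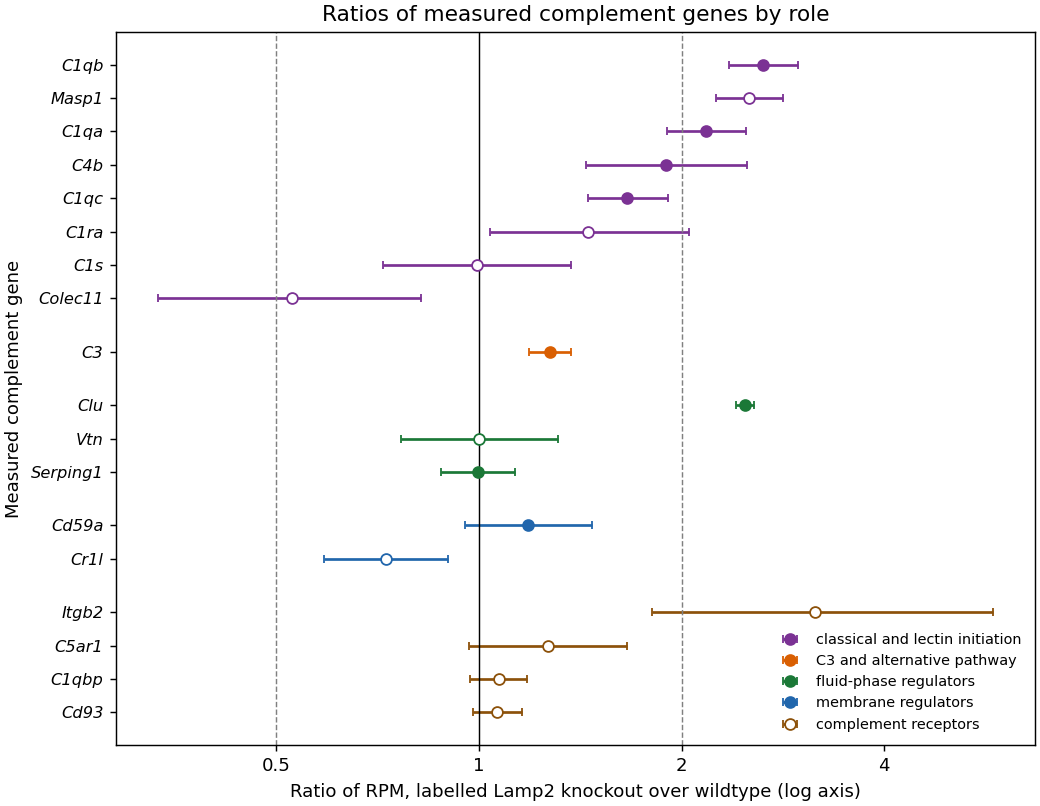
Ratio of RPM, knockout-labelled over wildtype, on a log axis for measured complement genes grouped by role, with 1 regulator within 2-fold not shown. Filled points are the 8 measured genes of the set and open points are other complement genes; bars are 95% counting intervals and dashed lines mark 2-fold. C1qb, Masp1, C1qa, Clu and Itgb2 lie beyond 2-fold higher and no gene shown lies beyond 2-fold lower by the log2 rule with a pseudocount.

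Of the 9 genes, Clu had the widest gap in RPM. It encodes clusterin, a secreted chaperone that also keeps the terminal complex from inserting into membranes. The gene (chromosome 14, plus strand, 65968483 to 65981545) had 13478 reads (1536 RPM) in the knockout-labelled library and 5200 reads (618 RPM) in the wildtype, a ratio of 2.48 (2.41 to 2.57). It was 2.29, 2.29 and 2.19 under the rescalings. Clu supplied 73.2% of the reads of the 9 genes in the knockout-labelled library and 62.8% in the wildtype. Without Clu the other 8 genes summed to 564 RPM against 366 RPM, a ratio of 1.54 (1.47 to 1.61).

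The other inhibitors of the set were close to equal in the libraries. Serping1 (chromosome 2, minus strand, 84765360 to 84775429), the serpin that inactivates the C1 proteases, had 507 reads (57.8 RPM) in the knockout-labelled library and 487 reads (57.9 RPM) in the wildtype. Its ratio was 0.998 (0.880 to 1.13), and it was 0.879 when mitochondrial and top genes were left out of the total (0.774 to 0.997). Cd59a (chromosome 2, plus strand, 104095801 to 104115351), a surface protein that blocks the terminal pore, had 194 reads (22.1 RPM) against 157 reads (18.7 RPM). Its ratio was 1.18 (0.955 to 1.47), so no difference beyond counting error was detectable at this depth. Cd59b, its close relative nearby, had 4 reads against 14, and 3.98% of 50-base windows of Cd59a are shared with it.

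Other measured regulators showed no 2-fold difference. In the fluid phase, Vtn, vitronectin, was at 13.3 RPM in the knockout-labelled library against 13.3 RPM in the wildtype. Of the 8 fluid-phase rows 4 were measured and Clu alone was called, against 3.35% called higher and 2.37% lower over all measured genes. Cfi had 5 reads against 0, Cpn2 9 against 20, Cpn1 0 against 1, and C4bp was listed at 0 in both. On the membrane, Cr1l, the rodent C3 convertase inhibitor known as Crry, was at 18.01 against 24.7 RPM (ratio 0.728, 0.588 to 0.900). With Cd59a it was 1 of 2 measured membrane regulators of 8 rows, and 0 were called, beside the same shares over all measured genes. Cd55 had 20 reads against 17, Cd46 1 against 1, Csmd1 3 against 2, and Daf2 and Cr2 were listed at 0.

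Transcripts of the terminal pore were nearly missing from both libraries. Hc, which encodes C5, and C6, C8a, C8b and C9 were listed at 0 reads in both, which allows up to 0.342 RPM in the knockout-labelled library and 0.357 RPM in the wildtype. C7 had 24 reads in the knockout-labelled library against 34 in the wildtype, and C8g 1 against 5. Hepatocyte genes were likewise near 0. Alb, albumin, and 6 of the other 10 hepatocyte rows found were listed at 0 reads in both libraries. Ahsg, fetuin-A, was the 1 measured row at 9.35 against 3.80 RPM, and passed the 5 RPM minimum only through the knockout-labelled library.

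The measured complement receptors lay within 2-fold apart from Itgb2. This shared beta chain of the leukocyte receptors CR3 and CR4 had 56 reads (6.38 RPM) in the knockout-labelled library against 17 reads (2.02 RPM) in the wildtype, a ratio of 3.16 (1.81 to 5.80). It passed the 5 RPM minimum only through the knockout-labelled library. Its partner chains Itgam and Itgax had 34 against 32 reads and 0 against 2. C5ar1, a receptor for the fragment C5a, was at 15.0 against 11.9 RPM, and Cd93 and C1qbp, first described as C1q-binding proteins, were at 134 against 126 RPM and 101 against 94.6 RPM. Of 9 receptor rows 4 were measured, 1 was called higher and 0 lower (3.35% and 2.37% over all measured genes), with a median of 0.21. C3ar1 had 22 reads against 36, Vsig4 3 against 7 and Gpr77, the other C5a receptor, 16 against 5.

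Over all 6 role lists together, 19 of 53 rows were measured, with 15 above 0 and a median log2 ratio of 0.32. Of these 19 rows 5 were called higher and 0 lower, against 3.35% and 2.37% over all measured genes. Without the 9 genes of the set, 11 rows were measured, 2 were called higher (Masp1 and Itgb2) and the median was 0.10, against 0.11 over all measured genes.

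**Figure D4:**
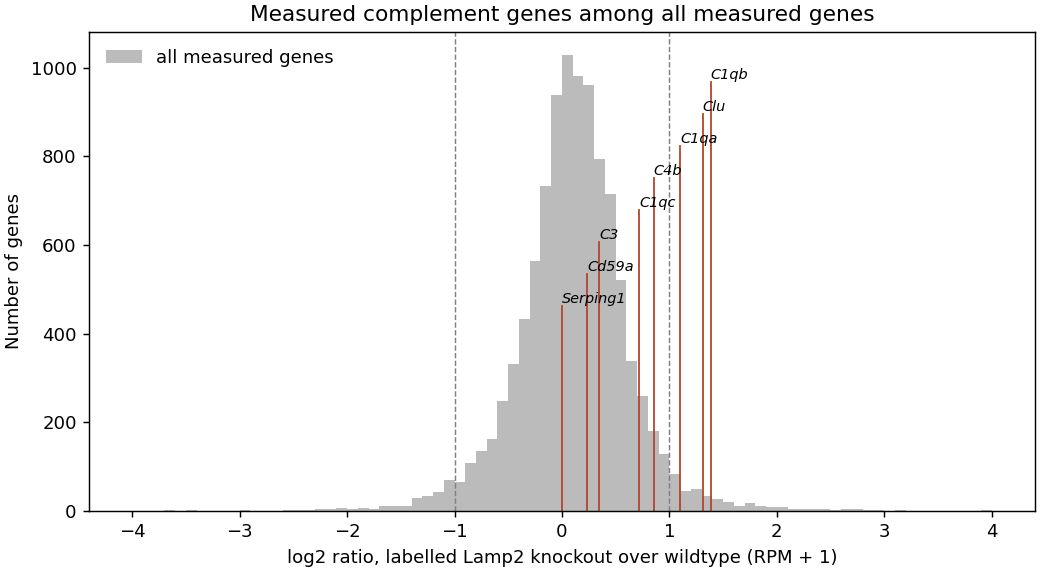
Number of genes by log2 ratio, knockout-labelled over wildtype, for all 10209 measured genes (grey; ratios beyond 4 in size are counted in the end bins), with red lines at the 8 measured complement genes of the set. Line heights only separate the names, and dashed lines mark 2-fold. Serping1 lies at 0.00, below the median of 0.11, and C1qb lies farthest right at 1.38.

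Levels of different genes were compared per kb of annotated exon, since longer transcripts collect more reads. In the knockout-labelled library the order was Clu at 447 RPM per kb, C1qb at 111, C1qa at 78.9, C3 at 37.98, C1qc at 34.3, Serping1 at 24.9, Cd59a at 12.2, C4b at 3.20 and Cfd at 0.989 RPM per kb. In the wildtype it was Clu at 180 RPM per kb, C1qb at 42.1, C1qa at 36.2, C3 at 29.8, Serping1 at 24.9, C1qc at 20.6, Cd59a at 10.3, Cfd at 3.74 and C4b at 1.69 RPM per kb. The counting intervals of C3 and C1qc overlapped in the knockout-labelled library, as did those of C1qb and C1qa and those of Serping1 and C1qc in the wildtype, so these neighbours were not set apart by counting. Among 8955 measured genes with an annotated length, Clu ranked 97 in the knockout-labelled library and 189 in the wildtype, and C1qb ranked 330 and 687. The length used moved the level of Clu, C1qc and Serping1. With the longest transcript in place of the union of exons, Clu stood at 849 against 342 RPM per kb and C1qc at 55.0 against 33.1 RPM per kb, which puts C1qc above C3 in both libraries. Serping1 stood at 32.7 against 32.8 RPM per kb, above C3 in the wildtype only.

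**Figure D5:**
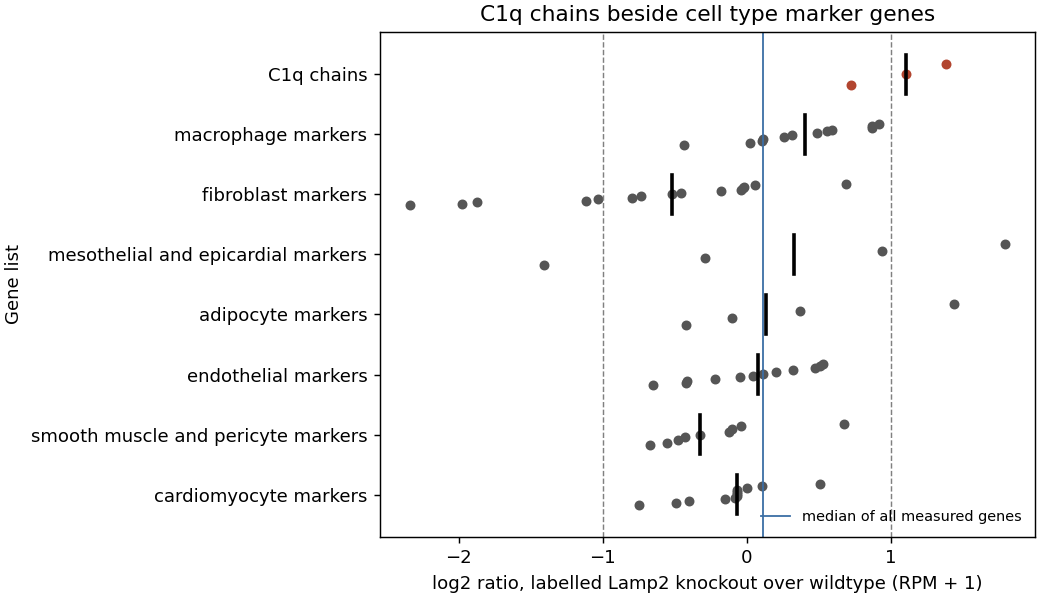
Log2 ratio, knockout-labelled over wildtype, of the 3 C1q chains (red, top) and of measured marker genes of 7 cell types (grey points), with black bars at each list's median and a blue line at the median of all measured genes, 0.11. Dashed lines mark 2-fold. The C1q chains lie from 0.72 to 1.38, the macrophage markers have a median of 0.40 and the fibroblast markers a median of −0.52.

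Markers of other cell types that the tissue can hold varied by list. Fibroblast markers, from cells known to make C3, C4 and the C1 inhibitor, had a median log2 ratio of −0.52 over 15 measured rows. Of these rows 5 were called lower and 0 higher, against 2.37% and 3.35% over all measured genes. Below 0 were 13 of the 15. Those called lower were Col3a1 (6.38 RPM in the knockout-labelled library against 36.4 RPM in the wildtype), Col1a1 (6.50 against 28.5), Lum, Pi16 and Islr. Lum was at 1.71 against 8.92 RPM and passed the 5 RPM minimum only through the wildtype. Pi16 was at 31.5 against 65.5 RPM and Islr at 6.50 against 15.2 RPM. The 2 most abundant fibroblast markers were level, with Gsn at 614 against 632 RPM and Dcn at 393 against 379 RPM. Mesothelial and epicardial markers were low, summing to 33.6 RPM against 40.2 RPM, and 4 of 13 rows were measured with a median log2 ratio of 0.32. Each of these 4 reached 5 RPM only in the library where it was higher, so the calls and the median rest on that filter. Of the unmeasured rows, Krt8 alone had a ratio above 1 (5 reads against 3), and Gpm6a had 21 against 40 and Lrrn4 12 against 28. Upk3b was called lower at 2.96 against 9.51 RPM and Rspo1 higher at 8.21 against 1.66 RPM, with Wt1 at 4.67 against 5.94 RPM and Krt18 at 5.01 against 2.14 RPM. Cardiomyocyte, endothelial and smooth muscle lists had medians of −0.07, 0.08 and −0.33. Of their 12, 12 and 9 measured rows 0 were called, against 3.35% higher and 2.37% lower over all measured genes. In the smooth muscle list 8 of the 9 were below 0, where 61.2% of all measured genes were above 0. Cdh5 and Fabp4 led the endothelial list at 232 against 241 RPM and 281 against 376 RPM, and Rgs5 and Abcc9 the smooth muscle and pericyte list at 567 against 608 RPM and 205 against 224 RPM. Neutrophil markers summed to 19.3 RPM against 1.78 RPM, and Elane was listed at 0 in both. S100a9, the 1 measured row, had 88 reads against 5 and passed the minimum only through the knockout-labelled library. Lymphocyte markers summed to 1.14 against 0.951 RPM with 0 measured, and the erythroid genes Hba-a2 and Hbb-b1 were at 122 against 145 RPM and 37.4 against 31.98 RPM. The part of any of these cell types in the complement levels was not tested.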

How the data were processed

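Both libraries share 1 deposited table with a row for each gene. Its columns are, per the file headers, raw read counts (whole in every row) and RPM, and the deposited RPM match counts per 1000000 of the library's summed counts to within 5e-05. The fold and the p-value that the authors deposited were not used, since no source used here gives the method of the p-value. The submitters' processing notes name STAR and, as builds, GRCm38 and mm10. The counting tool, the annotation and the use of strand were not given in the sources used here. Deposited starts were increased by 1 to count from 1.

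Groups came from the genotype labels. With 1 library per group no test was made. Ratios divide RPM with nothing added, and their 95% intervals come from the Clopper-Pearson bounds of the binomial share of reads. PCR copies could not be told from separate molecules, so intervals and floors cover counting error only, and genes with few reads are known less closely. Exon lengths and shared windows came from GENCODE M21 and promoter windows from RefSeq, both on GRCm38. The 9 genes and the 20 lists (235 of 246 entries found; some entries are alternative symbols of 1 gene) were chosen with earlier results of these data known. The text names all 9, called genes and those with the largest log2 ratios in the other complement lists, their unmeasured rows (1 complement regulator is not reported here), and the 2 most abundant measured markers of a cell type; other genes were named after their values were seen, among them Emr1, Tyrobp, Cidea, Thrsp, Rspo1, Krt18, Cx3cr1, Fcgr1, Lep, Retn, Ucp1, Alb, Elane, Crp, Apcs and Saa2. Alternatives were 3 rescalings (the trimmed mean left out 30% of ratios and 5% of levels at each end), a pseudocount of 0.1 or 5 RPM, a measured level of 1 RPM, 20 RPM or no minimum, thresholds of 1.5-fold and 3-fold, the list mean and the longest transcript. Adding C4a reads to C4b and windows of 100 bases were chosen after seeing the data. Motifs of NF-kB and of the interferon response were also searched and are not reported here. The rule and the intervals were tried on simulated independent Poisson counts. These hold no spread between animals and no PCR copies, so that trial checks the computation only. Python 3.11.15, numpy 2.4.6, pandas 2.3.3, scipy 1.17.1 and matplotlib 3.10.9 were used.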

Additional observations from a re-analysis of the deposited data

How the results depend on the processing

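Of 8 measured complement genes in the set, 3 were called higher and 0 lower, and under the 3 rescalings the count higher was 2. With a threshold of 1.5-fold 5 were higher, by the addition of C1qc and C4b, and with 3-fold 0 were. With a minimum of 1 RPM or none, 1 was lower, which was Cfd. Over all complement lists the count lower was 1 with a minimum of 1 RPM or none and 1 at 1.5-fold (Colec11). The count higher, 5 by the main rule, was 4 under each rescaling, 7 at 1.5-fold and 0 at 3-fold. With a minimum of 1 RPM or none it was 6, by the addition of Fcna. Itgb2 lost its call with a pseudocount of 5 RPM and was not measured with a minimum of 20 RPM. Of the values recomputed under an alternative, 212 stayed within their counting interval or within 1.5 times the count, and 37 moved. The median log2 ratio of the measured genes ranged from 0.61 to 0.82. Over all measured genes the counts of 342 higher and 242 lower were 216 and 357 with mitochondrial and top genes left out of the total, 194 and 75 with a pseudocount of 5 RPM, 220 and 92 with a minimum of 20 RPM, 457 and 397 with a minimum of 1 RPM or none, 1307 and 745 at 1.5-fold and 87 and 46 at 3-fold. With 1 library per group no library could be left out, and the spread between animals is unknown.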

Other observations

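Acute phase genes, several of which are induced together with complement components in inflammation, were mostly higher in the knockout-labelled library. Of 8 measured rows 5 were called higher and 0 lower, against 3.35% and 2.37% over all measured genes, with a median log2 ratio of 1.67. Lcn2, lipocalin 2, was at 184 RPM in the knockout-labelled library against 6.90 RPM in the wildtype, Serpina3n, a protease inhibitor, at 415 against 52.4 RPM, and the metallothioneins Mt2 and Mt1 at 1093 against 119 RPM and 2697 against 553 RPM. C3, itself an acute phase protein of the liver, had a ratio of 1.28, and Crp, Apcs and Saa2 were listed at 0 reads in both libraries.

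Interferon response genes were mixed, with 6 of 18 measured rows called higher, 1 lower and a median log2 ratio of 0.55. Over all measured genes 3.35% were called higher and 2.37% lower. Irf7, a transcription factor of the interferon response, was at 11.7 RPM in the knockout-labelled library against 2.38 RPM in the wildtype, and B2m, the light chain of class I antigen presentation, at 944 against 326 RPM. Ifit3 and Ifit1, interferon-induced antiviral genes, were at 5.01 against 1.31 RPM and 6.61 against 2.02 RPM. Irf7, Ifit3 and Ifit1 passed the 5 RPM minimum only through the knockout-labelled library. The row called lower, Gbp2 at 2.85 against 7.13 RPM, passed it only through the wildtype. These lists were chosen with earlier results of these data known, and their relation to the complement levels was not tested.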
